A study of Hippophae rhamnoides with 3 samples.

Results

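The genes of amino acid, polyamine, nitrogen and sulphur metabolism were examined in leaf libraries of seabuckthorn (Hippophae rhamnoides), a cold-hardy shrub. Members were taken by name from the genes listed by the authors for any of 3 comparisons: the description of a gene's best hit in another species had to hold 1 of 19 keywords, such as serine acetyltransferase, arginine decarboxylase, glutamine, nitrate reductase or chorismate. Names with transporter, tRNA, receptor or channel were left out, which removed 10 genes. The rule gave 37 of 7713 listed genes, and it used no measured value beyond the listing. Of these, 28 carried the name of an enzyme of these pathways and 9 matched a keyword only by the wording of their name. Plantlets 30 days old were kept for 6 hr at -10°C (freeze stress, FS), at 4°C (cold stress, CS) or at 28°C (control, CON), the temperature at which all of them had been raised. Expression was measured by DeepSAGE, in which NlaIII cuts the cDNA at CATG and the 17 bases after the site are sequenced, which gives a tag of 21 bases for each transcript sampled. There was 1 library per condition, and the sources used here do not say how many plants went into each. The libraries held 11908614 (FS), 12010122 (CS) and 11566379 (CON) clean tags.

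These pathways bring inorganic nitrogen and sulphur into organic form. In leaves, nitrate is reduced to nitrite by nitrate reductase in the cytosol and to ammonium by nitrite reductase in the chloroplast, and glutamine synthetase and asparagine synthetase place the nitrogen in amides. Serine acetyltransferase and cysteine synthase make cysteine, the entry point of reduced sulphur, from which glutathione and S-adenosylmethionine, the general methyl donor, are derived. Arginine decarboxylase opens a route to the polyamines, and chorismate is the branch point to the aromatic amino acids and to salicylic acid. Arginine decarboxylase, cysteine and glutathione are widely studied in plants under low temperature and drought.

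Because the tag is the unit that was counted, the tags behind the main results are printed here, 5′ to 3′, with the NlaIII site in capitals. Each was matched by the authors to the named gene alone, in the sense direction, and the name of the assembled gene stands in parentheses.
Nitrate reductase (Unigene18918_All): CATGagagagtgaatgtgtgg
Ferredoxin-nitrite reductase (Unigene3220_All): CATGcactggcaatcaatttt
Glutamine synthetase, Ricinus hit (Unigene115128_All): CATGacacattgattgtttta
Glutamine synthetase, Camellia hit (Unigene56143_All): CATGaatgggatcctattgta
Asparagine synthetase, Securigera hit (Unigene18412_All): CATGttggtaaagaccactcc
Serine acetyltransferase 1 (Unigene51661_All): CATGctactggtgttgtaatt
Serine acetyltransferase 3 (Unigene8618_All): CATGttttcaattttgcacct
Serine acetyltransferase 7 (Unigene19719_All): CATGaggatgtgcctggtgag
Cysteine synthase (Unigene13029_All): CATGtctatatttcatatatt
Glutamate-cysteine ligase (Unigene74257_All): CATGcagttcataaatagcgg
S-adenosylmethionine synthetase (Unigene37929_All): CATGttggttttggtgcaggt
Adenosylhomocysteinase (Unigene75198_All): CATGagcctaccctcagccaa
Tryptophan decarboxylase (Unigene43627_All): CATGctgagattcgctgtggg
The tags lay at the CATG site nearest the 3′ end of the gene, except those of both glutamine synthetase genes, and held most of its count, except that of cysteine synthase (21.8% in FS and 31.9% in CS). For nitrate reductase, serine acetyltransferase 7 and S-adenosylmethionine synthetase the printed tag made up 100% of the gene's tags in FS and in CS.

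Values are given as clean tags and as TPM, which here means tags per 1000000 clean tags of the library. The difference between 2 libraries is given as a log2 ratio with an exact (Clopper-Pearson) 95% interval. The intervals treat each tag as an independent count and leave out variation between plants and between libraries. Tags were amplified by PCR and carry no molecular identifiers, so the intervals may be too narrow even for counting error. No ratio could be checked against replicates. Where a library held 0 tags, the fold was taken against a limit of 3 tags (0.252 TPM in FS, 0.250 TPM in CS and 0.259 TPM in CON). That fold leaves out the counting error of the other library. The exact 95% limit of the log2 ratio nearest to 0 is therefore given beside it. A gene was called changed where the authors had listed it for that comparison, which required at least a 2-fold difference, so every member was called at least once by the rule. Each library holds all cells of the leaf, in which fewer cells of a type and less RNA per cell cannot be told apart.

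In cold-stressed leaves the genes of these pathways were divided, with all 4 asparagine synthetase genes and 3 of the 5 genes of cysteine and glutathione synthesis higher, and all 4 genes of nitrogen assimilation lower, than in control leaves. In freeze-stressed leaves most of the called genes were higher than in control leaves, and most were higher than in cold-stressed leaves. In both comparisons this also held for all listed genes (56.2% and 55.3% higher). For CS vs CON, 26 of the 37 members were listed (70.3%), against 50.2% of the 7713 genes. Of the members 12 were higher and 14 lower, against 26.6% of all genes listed as higher and 23.6% as lower. Among all genes listed for that comparison 53.0% were higher. For FS vs CON, 16 members were listed (43.2%, against 52.5% of all genes), of which 11 were higher and 5 lower (29.5% and 23.0% of all genes), against 56.2% higher among all listed genes. For FS vs CS, 15 members were listed (40.5%, against 51.8% of all genes), with 12 higher and 3 lower (28.7% and 23.2% of all genes), against 55.3% higher among all listed for it. The median log2 ratio of the listed members was -1.07 for CS vs CON, 1.44 for FS vs CON and 1.76 for FS vs CS, and that of all listed genes was 1.08, 1.18 and 1.12 in the same order. The lists leave out differences under about 2-fold, so the median jumps with a small change in the split: over the 28 members with a role in the pathways it was 1.34 for CS vs CON, with 12 higher and 10 lower. The 9 members that matched by wording alone are described separately.

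**Figure D1:**
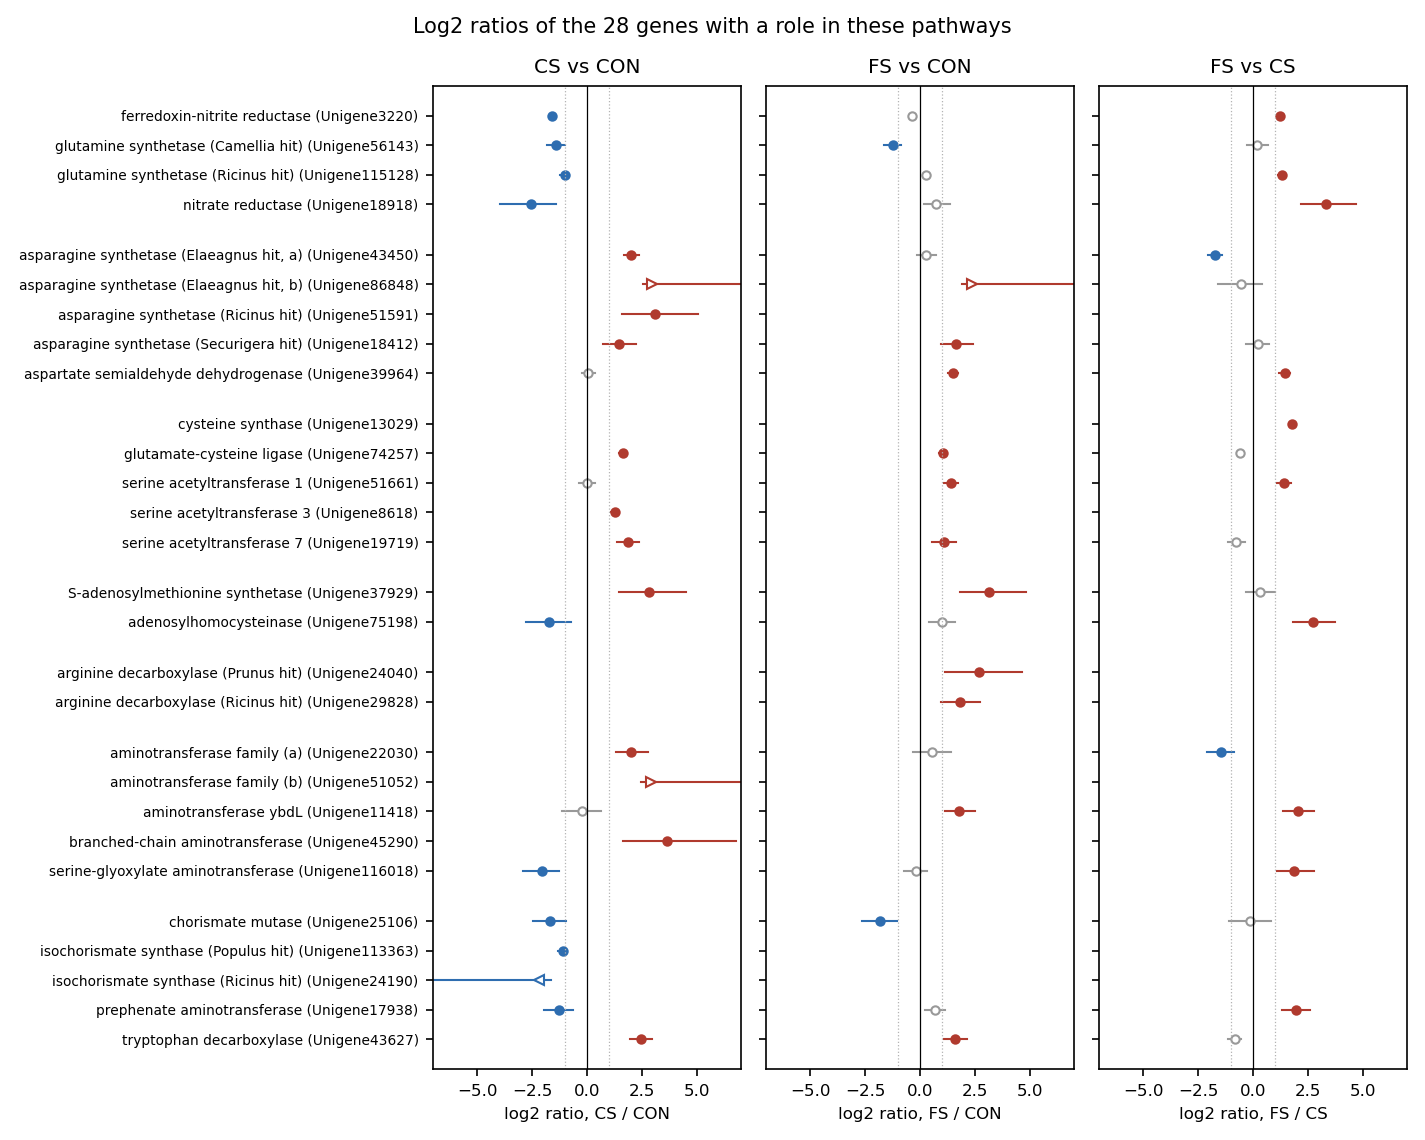
Log2 ratio of TPM (horizontal axis) for the 28 genes with a role in these pathways, in 1 panel per comparison, with exact 95% intervals as bars. Filled points were listed by the authors (red higher, blue lower), and grey open points were counted in both libraries but not listed. Open triangles are ratios against the limit of 3 tags, used for a library with 0 tags. No point is drawn where a library's count was not analysed here. The 4 nitrogen assimilation genes at the top lie left of 0 in CS vs CON, and 3 of them lie right of 0 as listed genes in FS vs CS.

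All 4 genes of nitrogen assimilation were lower in cold-stressed than in control leaves, and 3 of the 4 were higher in freeze-stressed than in cold-stressed leaves. Nitrate reductase, which catalyses the first and regulated step, had 69 tags (5.79 TPM) in FS, 7 tags (0.583 TPM) in CS and 40 tags (3.46 TPM) in CON. The cold library was far below both others, at a log2 ratio of -2.57 (interval -3.97 to -1.40) for CS vs CON and of 3.31 (2.19 to 4.68) for FS vs CS, the largest FS vs CS ratio among the listed members with tags in both libraries. The freeze library stood at 0.74 (0.16 to 1.34) relative to CON, which was not listed. Ferredoxin-nitrite reductase, the chloroplast enzyme that follows it, had 1306 tags (110 TPM) in FS, 564 (47.0 TPM) in CS and 1661 (144 TPM) in CON. Its log2 ratio was -1.61 (-1.75 to -1.47) for CS vs CON and 1.22 (1.08 to 1.37) for FS vs CS, and FS lay at -0.39 (-0.49 to -0.28) of CON, not listed. The low point of both reductases was thus the cold library.

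Glutamine synthetase adds ammonium to glutamate, and 2 genes with this name were listed. The gene with a Ricinus hit, annotated to the plastid, had 767 tags (64.4 TPM) in FS, 314 (26.1 TPM) in CS and 614 (53.1 TPM) in CON. Its sense count followed the reductases, with log2 ratios of -1.02 (-1.22 to -0.82) for CS vs CON and 1.30 (1.11 to 1.49) for FS vs CS. For FS vs CON the ratio was 0.28 (0.12 to 0.43), not listed. A more numerous antisense tag of this gene was low in both stressed libraries, with 1743 copies in FS, 1728 in CS and 3387 in CON. The orientation of the assembled sequence was not checked, so the low point in CS holds for the tags read as sense. The gene with a Camellia hit had 79 tags (6.63 TPM) in FS, 70 (5.83 TPM) in CS and 181 (15.6 TPM) in CON. It was low in both stressed libraries, at -1.24 (-1.64 to -0.85) for FS vs CON and -1.42 (-1.84 to -1.02) for CS vs CON. Its FS vs CS ratio of 0.19 (-0.30 to 0.67) did not differ from 0 beyond counting error, and its interval lay below that of the Ricinus-hit gene. Leaf mesophyll genes, named as light-harvesting proteins, the Rubisco small subunit or carbonic anhydrase, were mixed in direction. For CS vs CON, 6 such genes were listed (4 lower and 2 higher) and summed to 1605 TPM in CS against 4748 TPM in CON. Of the 54922 tags summed in CON, 22282 were those of 1 gene. For FS vs CS, 6 such genes (4 higher, 2 lower) summed to 3252 TPM in FS against 971 TPM in CS, and for FS vs CON, 2 (1 higher, 1 lower) summed to 995 TPM in FS against 367 TPM in CON. They cover 5 of the 6 marker names searched, some of which are spellings of the same name. These markers come from 8 genes, and none was at 0. Their part in the result was not tested.

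**Figure D2:**
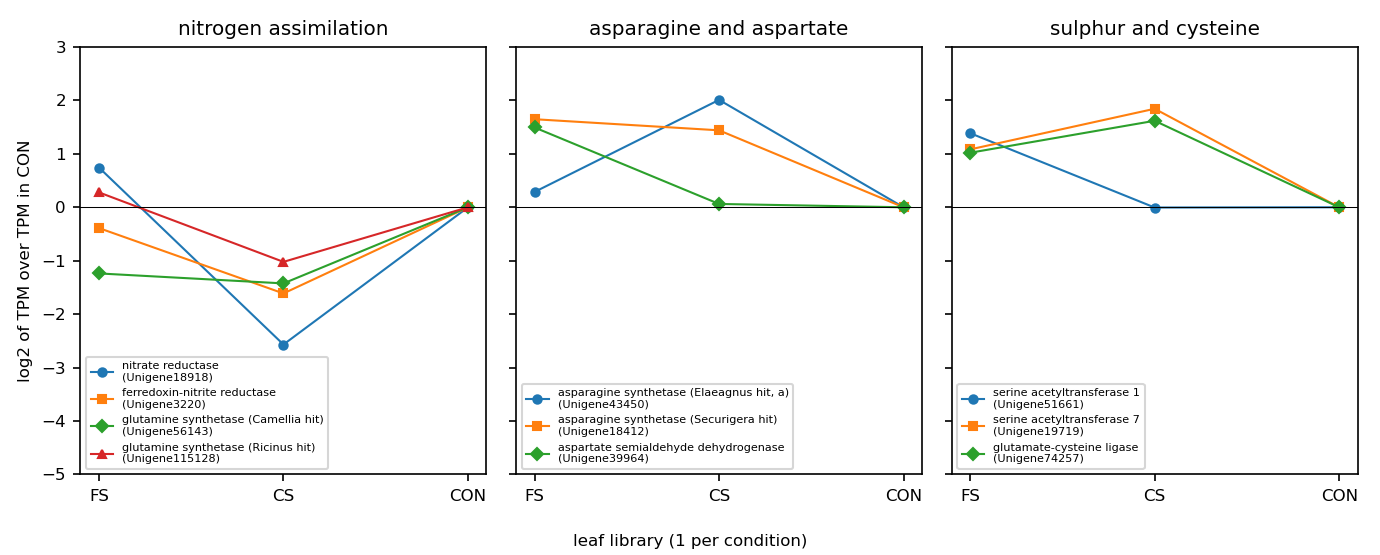
Log2 of TPM over the TPM in CON (vertical axis) in the FS, CS and CON libraries for the members of 3 role groups that were listed in at least 2 comparisons and had tags in CON; each point is 1 library and CON is 0 by construction. The 4 nitrogen assimilation genes are below 0 in CS, while the asparagine, aspartate and sulphur genes are above or close to 0 in both stressed libraries.

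Asparagine synthetase moves the amide nitrogen of glutamine to aspartate and makes the transport amide of many plants. All 4 genes with this name were higher in cold-stressed than in control leaves. The gene with the most tags, whose best hit is from Elaeagnus umbellata of the same family as seabuckthorn (Unigene43450_All), had 103 tags (8.65 TPM) in FS, 343 (28.6 TPM) in CS and 82 (7.09 TPM) in CON. It was high in the cold library only, at 2.01 (1.66 to 2.38) for CS vs CON and -1.72 (-2.06 to -1.40) for FS vs CS, and FS vs CON was 0.29 (-0.15 to 0.72), not listed. The second Elaeagnus-hit gene (Unigene86848_All) had 16 tags in FS and 24 in CS against 0 in CON, which makes it at least 5.18-fold higher in FS and at least 7.70-fold higher in CS. A Securigera-hit gene was high in both stressed libraries, with 71 tags (5.96 TPM) in FS, 62 (5.16 TPM) in CS and 22 (1.90 TPM) in CON. Its log2 ratio was 1.65 (0.94 to 2.41) for FS vs CON and 1.44 (0.72 to 2.21) for CS vs CON. A Ricinus-hit gene (Unigene51591_All) had 35 tags (2.91 TPM) in CS and 4 (0.346 TPM) in CON, and its count in FS was not analysed here. Whether these 4 assembled sequences are separate genes was not tested. Aspartate semialdehyde dehydrogenase (Unigene39964_All), which leads aspartate towards lysine, threonine and methionine, had 551 tags (46.3 TPM) in FS, 206 (17.2 TPM) in CS and 190 (16.4 TPM) in CON. It was higher in FS than in both other libraries, at 1.49 (1.25 to 1.74) relative to CON and 1.43 (1.20 to 1.67) relative to CS, and its CS vs CON ratio was 0.06 (-0.23 to 0.35).

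The 5 genes of cysteine and glutathione synthesis were higher in every comparison for which they were listed, 3 for CS vs CON, 3 for FS vs CON and 2 for FS vs CS. Serine acetyltransferase, which makes the O-acetylserine that accepts sulphide, was named 3 times, and the genes differed in the library where they were high. Serine acetyltransferase 1 had 307 tags (25.8 TPM) in FS, 118 (9.83 TPM) in CS and 114 (9.86 TPM) in CON. It was 2.62-fold higher in FS than in either other library, with log2 ratios of 1.39 (1.07 to 1.71) against CON and 1.39 (1.08 to 1.71) against CS, and CS and CON did not differ beyond counting error (-0.0046, -0.39 to 0.38). Serine acetyltransferase 7 had 96 tags (8.06 TPM) in FS, 164 (13.7 TPM) in CS and 44 (3.80 TPM) in CON. It was highest in the cold library, at 1.84 (1.36 to 2.36) for CS vs CON and 1.08 (0.55 to 1.63) for FS vs CON, with FS below CS by a ratio of -0.76 (-1.14 to -0.39) that was not listed. Serine acetyltransferase 3, mitochondrial by the name of its hit but annotated to the plastid by its GO term, had 1024 tags (85.3 TPM) in CS and 415 (35.9 TPM) in CON, a log2 ratio of 1.25 (1.08 to 1.42). Its count in FS was not analysed here.

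Cysteine synthase, which joins sulphide to O-acetylserine, had the most tags of the sulphur genes, with 1753 (147 TPM) in FS and 523 (43.5 TPM) in CS. Its FS vs CS log2 ratio was 1.76 (1.62 to 1.90). Neither stressed library passed the authors' threshold against CON for this gene, and its count in CON was not analysed here. The ratio therefore does not show a rise over control leaves. Glutamate-cysteine ligase, the first and limiting enzyme of glutathione synthesis, had 915 tags (76.8 TPM) in FS, 1397 (116 TPM) in CS and 438 (37.9 TPM) in CON. It was high in both stressed libraries, at 1.02 (0.85 to 1.19) for FS vs CON and 1.62 (1.46 to 1.78) for CS vs CON, and the FS vs CS ratio was -0.60 (-0.72 to -0.48), not listed. The hit of this gene was weak, with an E-value of 1.4e-07, so its name is less sure. The calls of this group moved with the scaling, but the other scalings were computed over the listed genes alone. They assume mostly unchanged genes, whereas every listed gene was called changed. Scaling by edgeR's TMM factors brought the FS vs CON ratios of serine acetyltransferase 7 and glutamate-cysteine ligase below the limit of 1, to 0.97 and 0.91. DESeq2's size factors lowered every ratio by a fixed amount (-1.04 for CS vs CON, -1.10 for FS vs CON and -1.08 for FS vs CS). Small rises of any listed gene thus fall under the limit by construction, and none of the 8 listed ratios of the group reached 1. Serine acetyltransferase 3, serine acetyltransferase 7 and glutamate-cysteine ligase then stood at 0.21, 0.80 and 0.58 for CS vs CON, and serine acetyltransferase 7 and glutamate-cysteine ligase at -0.019 and -0.082 for FS vs CON.

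S-adenosylmethionine synthetase makes the methyl donor from methionine, and it was high in both stressed libraries, with 45 tags (3.78 TPM) in FS, 36 (3.00 TPM) in CS and 5 (0.432 TPM) in CON. The log2 ratio was 3.13 (1.80 to 4.82) for FS vs CON and 2.79 (1.44 to 4.50) for CS vs CON, on 5 tags in the control. Adenosylhomocysteinase, which clears the product of methyl transfer, had 78 tags (6.55 TPM) in FS, 12 (0.999 TPM) in CS and 38 (3.29 TPM) in CON. It followed the reductases in being lowest in the cold library, at -1.72 (-2.79 to -0.75) for CS vs CON and 2.71 (1.83 to 3.73) for FS vs CS. Its FS vs CON ratio of 0.995 (0.42 to 1.59) was the closest to the limit of a log2 ratio of 1 among members that were not listed.

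Arginine decarboxylase converts arginine to agmatine, the first step of a plant route to putrescine, and both genes with this name were higher in freeze-stressed than in control leaves. Of these, the Prunus-hit gene (Unigene24040_All) had 26 tags (2.18 TPM) in FS and 4 (0.346 TPM) in CON, a log2 ratio of 2.66 (1.13 to 4.64). The Ricinus-hit gene (Unigene29828_All) had 54 tags (4.53 TPM) in FS and 15 (1.30 TPM) in CON, a ratio of 1.81 (0.96 to 2.74). The listings of both genes covered FS vs CON alone, so neither passed the authors' threshold for CS vs CON or FS vs CS. Their counts in the cold library were not analysed here. No gene named spermidine or spermine synthase was among the listed genes.

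Aminotransferases pass amino groups between amino and keto acids, and the 5 members with such a name had no common direction. Serine-glyoxylate aminotransferase (Unigene116018_All), a peroxisomal enzyme of photorespiration, had 62 tags (5.21 TPM) in FS, 17 (1.42 TPM) in CS and 69 (5.97 TPM) in CON. It was lowest in the cold library, at -2.08 (-2.93 to -1.29) for CS vs CON and 1.88 (1.09 to 2.75) for FS vs CS, and FS vs CON was -0.20 (-0.72 to 0.32). A gene of the aminotransferase family (Unigene22030_All) went the other way, with 31 tags (2.60 TPM) in FS, 87 (7.24 TPM) in CS and 21 (1.82 TPM) in CON. Its ratios were 2.00 (1.30 to 2.76) for CS vs CON and -1.48 (-2.12 to -0.87) for FS vs CS. The ybdL-like aminotransferase (Unigene11418_All) was high in freeze stress, with 89 tags (7.47 TPM) in FS, 22 (1.83 TPM) in CS and 25 (2.16 TPM) in CON, at 1.79 (1.14 to 2.49) against CON and 2.03 (1.34 to 2.77) against CS. Branched-chain aminotransferase (Unigene45290_All), of leucine, isoleucine and valine metabolism, had 26 tags in CS and 2 in CON, a log2 ratio of 3.65 (1.65 to 6.77) that rests on few tags. One of its tags had 0 copies in FS, 16 in CS and 0 in CON, so that tag was counted in the cold library alone. A further gene of the aminotransferase family (Unigene51052_All) had 23 tags in CS and 0 in CON, at least 7.38-fold higher.

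Around chorismate, 4 of 5 genes were lower in cold-stressed than in control leaves, and tryptophan decarboxylase was higher. Chorismate mutase (Unigene25106_All), the first step to phenylalanine and tyrosine, was low in both stressed libraries, with 19 tags (1.60 TPM) in FS, 21 (1.75 TPM) in CS and 65 (5.62 TPM) in CON. Its ratio was -1.82 (-2.64 to -1.06) for FS vs CON and -1.68 (-2.47 to -0.96) for CS vs CON. Prephenate aminotransferase (Unigene17938_All), which acts next on the arogenate route, had 107 tags (8.99 TPM) in FS, 28 (2.33 TPM) in CS and 66 (5.71 TPM) in CON. It was lowest in the cold library, at -1.29 (-1.98 to -0.63) for CS vs CON and 1.95 (1.33 to 2.60) for FS vs CS, so the 2 successive steps differed in the freeze library. Isochorismate synthase turns chorismate towards salicylic acid and phylloquinone, and both genes with this name were lower in the cold library. The Populus-hit gene (Unigene113363_All) had 302 tags (25.1 TPM) in CS and 628 (54.3 TPM) in CON, at -1.11 (-1.31 to -0.91). The Ricinus-hit gene (Unigene24190_All) had 0 tags in CS and 13 in CON, at least 4.50-fold lower. Tryptophan decarboxylase, which makes tryptamine, had 133 tags (11.2 TPM) in FS, 241 (20.1 TPM) in CS and 43 (3.72 TPM) in CON. It was high in both stressed libraries, at 1.59 (1.08 to 2.12) for FS vs CON and 2.43 (1.96 to 2.94) for CS vs CON, and FS lay at -0.85 (-1.16 to -0.53) of CS, not listed.

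**Figure D3:**
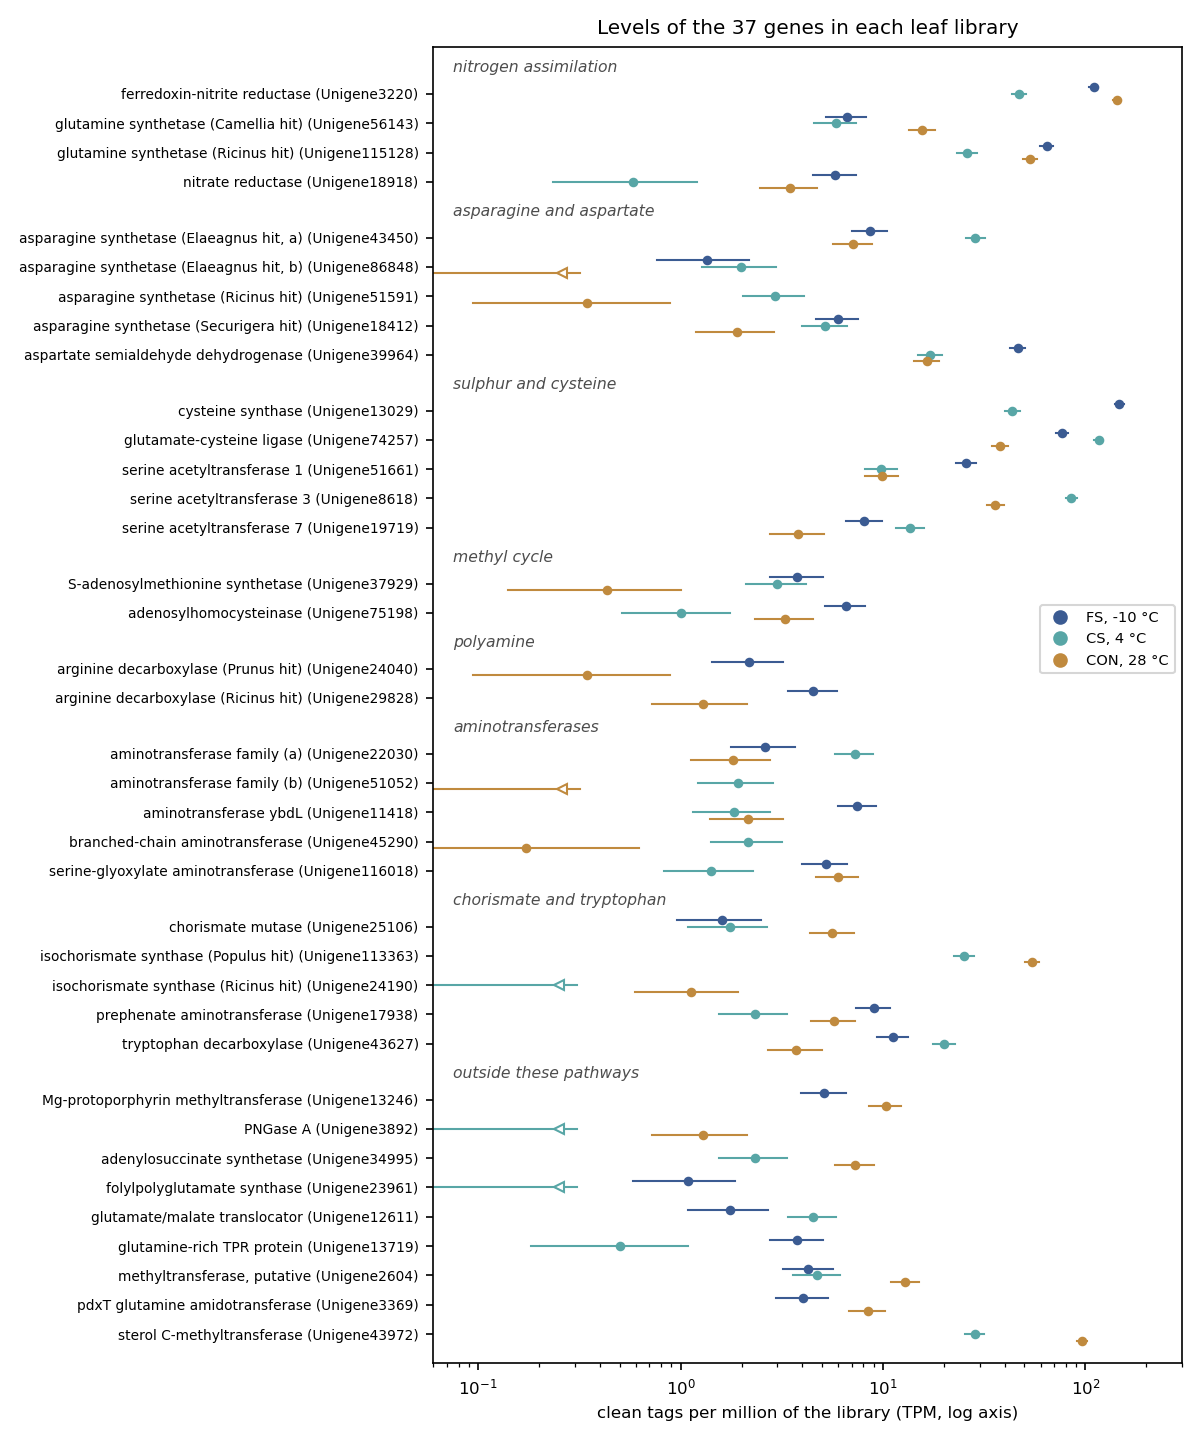
TPM (log axis) of each of the 37 genes in the FS, CS and CON libraries, grouped by role, with exact Poisson 95% intervals of the single count as bars. Open triangles stand at the limit of 3 tags for a library with 0 tags, and a missing point is a count not analysed here. Cysteine synthase in FS (147 TPM) and ferredoxin-nitrite reductase in CON (144 TPM) are the highest points.

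The 9 members outside these pathways were lower in all 7 of their CS vs CON and FS vs CON listings, with 4 lower for the first and 3 for the second. Among all genes listed for these comparisons, 47.0% and 43.8% were lower. The putative methyltransferase counts in both, and both share the CON library. Sterol C-methyltransferase (Unigene43972_All), of phytosterol synthesis, had the most tags, with 341 (28.4 TPM) in CS and 1112 (96.1 TPM) in CON, a log2 ratio of -1.76 (-1.94 to -1.58). Its sense tag nearest the 3′ end had 310 copies in FS, 125 in CS and 382 in CON, and the next had 128 in FS, 108 in CS and 255 in CON. Mg-protoporphyrin methyltransferase (Unigene13246_All), of chlorophyll synthesis, had 61 tags (5.12 TPM) in FS and 119 (10.3 TPM) in CON, at -1.01 (-1.48 to -0.55), the listed member nearest the 2-fold limit for FS vs CON. The glutamine amidotransferase subunit pdxT (Unigene3369_All), of vitamin B6 synthesis, had 48 tags in FS and 97 in CON, at -1.06 (-1.59 to -0.54). A putative methyltransferase (Unigene2604_All) was low in both stressed libraries, with 51 tags in FS, 57 in CS and 149 in CON. Adenylosuccinate synthetase (Unigene34995_All), of purine synthesis, had 28 tags in CS and 84 in CON. PNGase A (Unigene3892_All), a glycoprotein-trimming enzyme, had 0 tags in CS and 15 in CON, at least 5.19-fold lower. For FS vs CS, folylpolyglutamate synthase (Unigene23961_All) had 13 tags in FS and 0 in CS, at least 4.37-fold higher. The small glutamine-rich repeat protein (Unigene13719_All) had 45 tags in FS and 6 in CS, and the chloroplast glutamate/malate translocator (Unigene12611_All) had 21 tags in FS and 54 in CS.

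Of the 37 members, 17 were listed for 1 comparison and 20 for 2, and none for all 3, against 3753, 3711 and 249 of all 7713 genes. The counts in all 3 libraries were therefore known for 20 members. Among these, FS was the highest library for 9, CS for 6 and CON for 5. The lowest library was FS for 2, CS for 9 and CON for 9. Over all 3960 genes counted in 3 libraries, FS was highest for 36.3%, CS for 34.1% and CON for 29.6%, and the lowest was FS for 27.4%, CS for 32.4% and CON for 40.1%. Neighbouring libraries in these orders often did not differ, as in glutamine synthetase with a Camellia hit and in chorismate mutase, where FS and CS overlapped in their intervals. The listed members nearest to the limit were glutamine synthetase with a Ricinus hit for CS vs CON (-1.02), Mg-protoporphyrin methyltransferase for FS vs CON (-1.01) and ferredoxin-nitrite reductase for FS vs CS (1.22). The nearest that were not listed were the ybdL-like aminotransferase (-0.24), adenosylhomocysteinase (0.995) and tryptophan decarboxylase (-0.85) in the same order of comparisons.

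The listed tags of these genes gave a second view of the counts, because a gene's total holds its sense tags alone. In all, 33 members had 49 listed tags that matched them and no other gene, 34 in the sense and 15 in the antisense direction of the assembled sequence. For 11 members an antisense tag was listed and for 7 of these a sense tag as well. Where a tag and its gene were listed for the same comparison, they moved the same way: 24 sense and 10 antisense tags for CS vs CON, 14 and 1 for FS vs CON, and 12 and 2 for FS vs CS. Sense tags are part of the gene's own count, so only the antisense tags add a separate count, and the orientation of an assembled sequence was not checked.

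The antisense tags named next were chosen after their values were seen, because their counts differ from the gene's in profile or size or cover a library that the gene count does not.
Glutamine synthetase, Ricinus hit, antisense 1: CATGacagaagtttgtgaaat
Glutamine synthetase, Ricinus hit, antisense 2: CATGccattgttgttattaat
Nitrite reductase, antisense: CATGagagcctatcacacaca
Serine acetyltransferase 3, antisense: CATGtgttttaaattacatag
Asparagine synthetase, Elaeagnus hit, antisense: CATGgggtttggaagctcgag
Arginine decarboxylase, Ricinus hit, antisense: CATGgaacttgctagcagctt
Isochorismate synthase, Populus hit, antisense: CATGggattggagatcgcaag
The first glutamine synthetase tag had 1686 copies in CS and 4886 in CON, more than the sense total of its gene, and was lower in CS as the gene was. The second had 1743 copies in FS, 1728 in CS and 3387 in CON, and was lower in FS than in CON (interval of the log2 ratio -1.08 to -0.92), where the gene count was at 0.28. The nitrite reductase tag had 106 copies in FS, 8 in CS and 39 in CON, and was higher in FS than in CON (1.40, 0.86 to 1.97), where the gene count was slightly lower. The serine acetyltransferase 3 tag had 146 copies in FS, 66 in CS and 13 in CON, highest in the library for which the gene count was not analysed here. The asparagine synthetase tag had 102 copies in FS, 61 in CS and 10 in CON, so it was high in FS (3.31 against CON, 2.37 to 4.41) while the sense count was at 0.29. The arginine decarboxylase tag had 19 copies in FS, 74 in CS and 25 in CON, and thus peaked in the cold library, for which the sense count was not analysed here. The isochorismate synthase tag had 229 copies in FS, 48 in CS and 75 in CON, highest in FS, for which the sense count was not analysed here. Prephenate aminotransferase had an antisense tag with 24 copies in FS, 19 in CS and 71 in CON, lower in FS than in CON (-1.61, -2.34 to -0.92), whereas the gene count was at 0.66 in that comparison. The tag's direction keeps a gene and an antisense partner apart only if the assembled sequence has the right orientation, which was not checked. Which transcript gave an antisense tag was not tested.

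**Figure D4:**
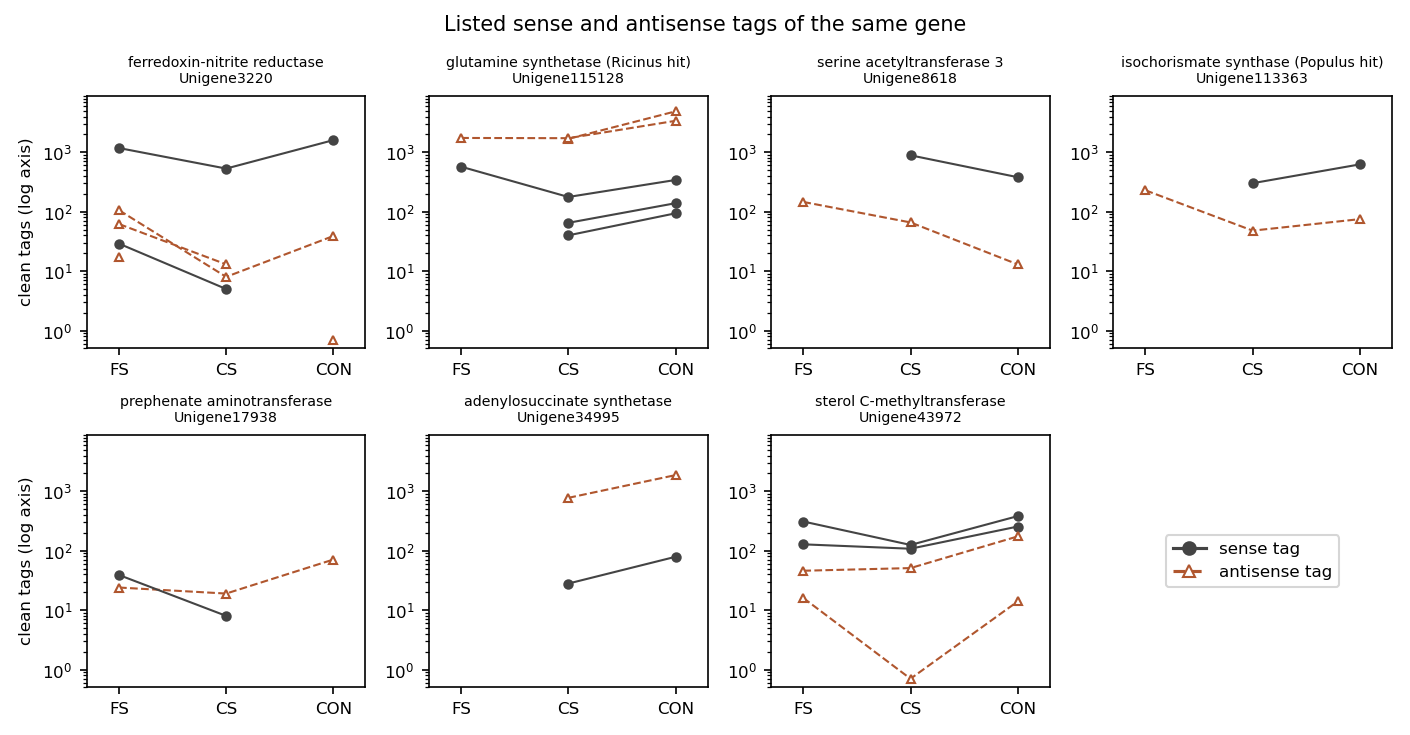
Clean tags (log axis) in the FS, CS and CON libraries for each listed sense tag (filled circles) and antisense tag (open triangles) of the 7 genes that had both; 0 tags are drawn at the foot of the axis, and lines break where a count was not analysed here. The antisense tags of glutamine synthetase and adenylosuccinate synthetase lie above the sense tags, and the antisense tag of nitrite reductase that was counted in all 3 libraries is lowest in CS (8 copies), as its main sense tag is.

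Other enzymes of the same pathways, taken by a second list of names, numbered 18 among the listed genes. For CS vs CON 8 were listed (44.4%, against 50.2% of all genes), 1 higher and 7 lower, where 53.0% of all listed genes were higher. For FS vs CON 8 were listed (44.4%, against 52.5%), 3 higher and 5 lower, where 56.2% of all listed genes were higher. For FS vs CS 12 were listed (66.7%, against 51.8%), 10 higher and 2 lower, where 55.3% of all listed genes were higher. Of the 18, 4 are named anthranilate N-benzoyltransferase and 1 hydroxycinnamoyl CoA shikimate/quinate hydroxycinnamoyltransferase, which belong to phenolic rather than amino acid synthesis, and all 5 were among the genes higher in FS than in CS. The last had 192 tags in FS, 81 in CS and 27 in CON. ATP sulfurylase, which activates sulphate, had 68 tags in FS, 14 in CS and 52 in CON, lowest in the cold library, with -1.95 (-2.91 to -1.07) for CS vs CON and 2.29 (1.45 to 3.24) for FS vs CS. A gene named O-acetylserine(thiol)-lyase, another name of cysteine synthase, had 90 tags in FS, 31 in CS and 15 in CON, and was higher in FS than in CON (2.54, 1.75 to 3.44) and CS (1.55, 0.95 to 2.19). Serine hydroxymethyltransferase of the mitochondrion, a photorespiratory enzyme, had 57 tags in FS, 10 in CS and 21 in CON. The P protein of glycine decarboxylase, its partner in the glycine to serine conversion, had 29 tags in CS and 105 in CON, and the T protein had 49 in FS and 13 in CS. Downstream of aspartate, homoserine kinase had 47 tags in FS, 15 in CS and 57 in CON, and threonine synthase had 123 in FS, 123 in CS and 257 in CON. Dihydrodipicolinate synthase, the first enzyme towards lysine, had 139 tags in FS, 118 in CS and 277 in CON. Diaminopimelate decarboxylase, the last enzyme towards lysine, had 732 tags in CS and 1500 in CON. Threonine synthase and dihydrodipicolinate synthase were thus lower in both stressed libraries than in CON, whereas aspartate semialdehyde dehydrogenase, which feeds both branches, was higher in FS. Arginase, which competes for arginine, had 0 tags in FS and 13 in CS. Shikimate kinase had 567 tags in FS and 1209 in CON. The genes named 5-enolpyruvylshikimate 3-phosphate synthase had 0 tags in FS and 15 in CON (Camptotheca hit), and 23 in FS, 58 in CS and 73 in CON (Amaranthus hit). All of these shikimate genes were lower in FS than in CON.

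The annotation of the members was more complete than that of the rest, as a rule based on names requires. The E-value of the best hit was 1e-20 or below for 32 of the 37 members (86.5%) and for 54.6% of all listed genes. The weakest were glutamate-cysteine ligase (1.4e-07) and the second Elaeagnus-hit asparagine synthetase (1.1e-07). A plastid or chloroplast location was given for 10 members (27.0%), against 7.26% of all listed genes. Part of this contrast lies in coverage, because any cell component was given for 20 members (54.1%) and for 33.2% of all listed genes. No member had a best hit outside green plants, and 3 had a hit with no organism in its description. No member was annotated with a response to cold or temperature, a term given to 14 of all listed genes.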

How the data were processed

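Leaf RNA of 1 library each for FS, CS and CON was profiled by DeepSAGE. The authors discarded adaptors, poor reads, tags of odd length and single-copy tags. They mapped the clean tags to reference sequences, allowing few mismatches, by Bowtie 0.12.3 per the submitters' processing notes. Their deposited count tables give clean tags for each gene (tags shared by several genes having been dropped) and for each distinct tag. The authors' TPM column scales a count to 1000000 clean tags of the library, and writes 0 as 0.01. The tables list what passed the authors' threshold. They also hold the authors' log2 ratios, P-values and FDR, which were not used.

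Library totals (11908614 in FS, 12010122 in CS and 11566379 in CON) were recovered from counts and TPM, which then differed by at most 0.005 TPM. Exact binomial (Clopper-Pearson) 95% intervals of the ratios were computed for every listed gene and tested on simulated data. They compare libraries, not conditions. Roles were assigned by hand from hit names. The genes named are members listed in at least 2 comparisons, the member with the most tags in each role, the 3 largest rises and falls per comparison (minimum of 10 tags in the lower library), members with 0 tags, and all arginine decarboxylases and serine acetyltransferases; other members are given more briefly. Members and lists were chosen with earlier results of these data known. Alternatives were other scalings (edgeR's TMM, DESeq2 size factors), tag minimums, hit limits and the exact test of edgeR under assumed coefficients of variation. R 4.3.3 was used with edgeR 4.0.16 and DESeq2 1.42.0, and Python 3.11.15 with scipy 1.17.1, numpy 2.4.6, pandas 2.3.3 and matplotlib 3.10.9. No genome was used here, so gene positions are not given.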

Additional observations from a re-analysis of the deposited data

Results flagged for a closer look

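In 4 genes the CS vs CON and FS vs CON ratios lay on opposite sides of 0 with both intervals clear of 0. Adenosylhomocysteinase had log2 ratios of -1.72 (CS vs CON) and 1.00 (FS vs CON), nitrate reductase -2.57 and 0.74, glutamine synthetase with a Ricinus hit -1.02 and 0.28, and prephenate aminotransferase -1.29 and 0.66, in that order of comparisons. In each the FS vs CON ratio was not listed, and both ratios share the CON library. The direct log2 ratios of FS to CS were 2.71, 3.31, 1.30 and 1.95. That all 4 were listed for FS vs CS was fixed in advance and adds no support. A gene not listed for FS vs CON had a count in FS only if it was listed for FS vs CS. With 1 library per condition, the difference was not tested over replicates.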

How the results depend on the processing

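Each comparison rests on 1 library per condition, so no library could be left out. No paired analysis was possible because there were no replicates to pair. Scaling over the listed genes shifted every log2 ratio, by -0.12 (CS vs CON), -0.11 (FS vs CON) and -0.13 (FS vs CS) under edgeR's TMM and by -1.04, -1.10 and -1.08 under DESeq2's size factors. Both assume mostly unchanged genes, whereas every gene in these lists was called changed. At a log2 limit of 1, DESeq2's scaling left 6 of 12 higher members for CS vs CON, 3 of 11 for FS vs CON and 4 of 12 for FS vs CS, moved the medians to -2.11 for CS vs CON, 0.34 for FS vs CON and 0.67 for FS vs CS, and turned 2 of 57 gene results round, serine acetyltransferase 7 (-0.019) and glutamate-cysteine ligase (-0.082) for FS vs CON. TMM scaling took these same results to 0.97 and 0.91, the 2 of 57 it left under the limit. A log2 ratio of at least 2 was reached by 7 higher and 4 lower members for CS vs CON, 3 and 0 for FS vs CON, and 5 and 0 for FS vs CS, which is 42.3%, 18.8% and 33.3% of the listed members against 39.7%, 36.4% and 34.0% of all listed genes. With edgeR's exact test at an assumed coefficient of variation of 0.4, 6 higher and 2 lower members passed for CS vs CON, 2 and 0 for FS vs CON, and 4 and 0 for FS vs CS, which is 30.8%, 12.5% and 26.7% of the listed members against 26.1%, 20.8% and 16.6% of all listed genes; at 0.2 all 57 passed. The result at 0.2 says nothing particular to the members, because every gene listed for each comparison passed as well. Only members with a role in the pathways gave 2 lower genes for FS vs CON, in place of 5, and a median of 1.34 for CS vs CON, in place of -1.07. The other alternatives kept every count within 1.5-fold and every median in direction.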
